A study of Mus musculus with 16 samples.

Results

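The transcriptome of femoral cortical bone was described in the 8 mice that bore weight normally, out of 16 mice in the series. These 8 were chosen by their sample titles, Control 1 to Control 8. All were female C57Bl/6 mice aged 11 weeks, and the same strain, sex and age applied to the 8 mice with hindlimb unloading, whose libraries were not used here. The bone ends were cut off and the marrow was flushed out with PBS before the remaining shaft was frozen and its total RNA extracted, and 1 library was made and sequenced from each mouse. Values are RPKM, reads on a gene divided by its length and by the number of reads in the library, given as mean ± SD over 8 mice (n = 8) unless a range is stated. There was 1 group, so levels were described, and tests were made only of ratios and relations within these mice.

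Cortical bone is the dense outer shell of long bones. Osteocytes, embedded in the mineral, sense load and signal with sclerostin, RANKL and FGF23. Osteoblasts on the surfaces secrete type I collagen and the proteins that control its mineralization, and osteoclasts, which descend from the blood lineage, dissolve mineral with acid and digest collagen with cathepsin K. The shaft encloses blood-forming marrow, is crossed by vessels and is covered by periosteum, where tendon and muscle attach.

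The reads behind each library, recovered from the RPKM values, ranged from 7067512 in mouse 2 to 19708590 in mouse 1, and 88.7% ± 4.28 of them fell on the features of the table. For a feature of 1 kb, a floor of 3 reads was 0.152 RPKM in mouse 1 and 0.424 RPKM in mouse 2, and floors cover counting error only. Of 36829 features, 17053 had a mean of at least 0.5 RPKM and were kept, 13992 of these reached 0.5 RPKM in all 8 mice, and 8823 features were listed at 0 in every mouse. No pair of libraries agreed within sampling noise, so all 8 were counted as separate. Checked against the label of the tissue, 11 of 11 osteocyte, 18 of 18 osteoblast and 14 of 15 osteoclast genes passed 0.5 RPKM, but neutrophil genes held 8.21% of the summed RPKM and osteocyte genes 0.104%. Counted as reads, without dividing by length, these shares were 2.78% and 0.108%.

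The most abundant RNAs were those of the mitochondrial genome, which every cell type carries, and of neutrophil genes. The first was mt-Co1, a subunit of cytochrome c oxidase encoded in the mitochondrial genome, whose level was lowest in mouse 7 at 12103 RPKM, had a median of 17983 and was highest in mouse 2 at 23080. The mitochondrial gene mt-Cytb followed with 14754 ± 4328 RPKM. S100a8, a chain of the neutrophil calcium-binding protein calprotectin, was at rank 3 with 11620 ± 3414 RPKM, and its partner S100a9 was at rank 5 with 10733 ± 2887 RPKM. The first gene of the bone matrix was Sparc, which encodes osteonectin, at rank 24 with 1011 ± 413 RPKM. With M21 exon lengths it was Spp1, which encodes osteopontin, at rank 16 with 1364 RPKM, ahead of Sparc at rank 19 with 1181 RPKM.

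Mitochondrial features filled 10 of the 30 highest places. Among them mt-Nd1 (11360 RPKM), mt-Nd2 (10013 RPKM), mt-Nd6 (7000.3 RPKM), mt-Nd4 (5050.2 RPKM) and mt-Nd5 (4497 RPKM) encode subunits of respiratory complex I. The mitochondrial transfer RNA mt-Te (3878 RPKM) and the ribosomal RNAs mt-Rnr2 (929.8 RPKM) and mt-Rnr1 (849.95 RPKM) were also among the 30. The 36 features of the mitochondrial genome held 22.1% ± 4.86 of the summed RPKM, from 14.0% in mouse 7 to 28.4% in mouse 2. The joint share thus varied 2.02-fold between mice. The genome encodes 13 protein genes, and those not named in the text lay outside the 60 highest features. Why their values were lower was not tested, so the share and the order within the genome are those of the values as deposited.

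Blood-cell genes filled most other high places. The neutrophil granule genes Ngp (4295 ± 1128 RPKM) and Retnlg (848.8 ± 197 RPKM) stood at ranks 10 and 30, and Lyz2, the lysozyme of myeloid cells, stood at rank 12 with 2136 ± 305 RPKM. Igkc, the constant region of the kappa light chain, had 2091 ± 860 RPKM at rank 13. The beta globins Hbb-b2 (1388 ± 658 RPKM) and Hbb-b1 (1271 ± 638 RPKM), Cd24a (1258 ± 394 RPKM), a surface protein of immature blood cells, and the platelet chemokine Ppbp (1084 ± 260 RPKM) lay between ranks 17 and 22. Car2, a carbonic anhydrase of red cells and osteoclasts, had 981.7 ± 296 RPKM. Genes used by most cells completed the group, with B2m (1555 ± 434 RPKM), the ferritin heavy chain Fth1 (1554 ± 209 RPKM), Rpl4 (1027 ± 154 RPKM) and Tmsb4x (965.6 ± 225 RPKM). Fth1 depended on the length used, since its level was 388 RPKM with the combined exon length of GENCODE M21 in place of the implied length of 866 bases.

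**Figure D1:**
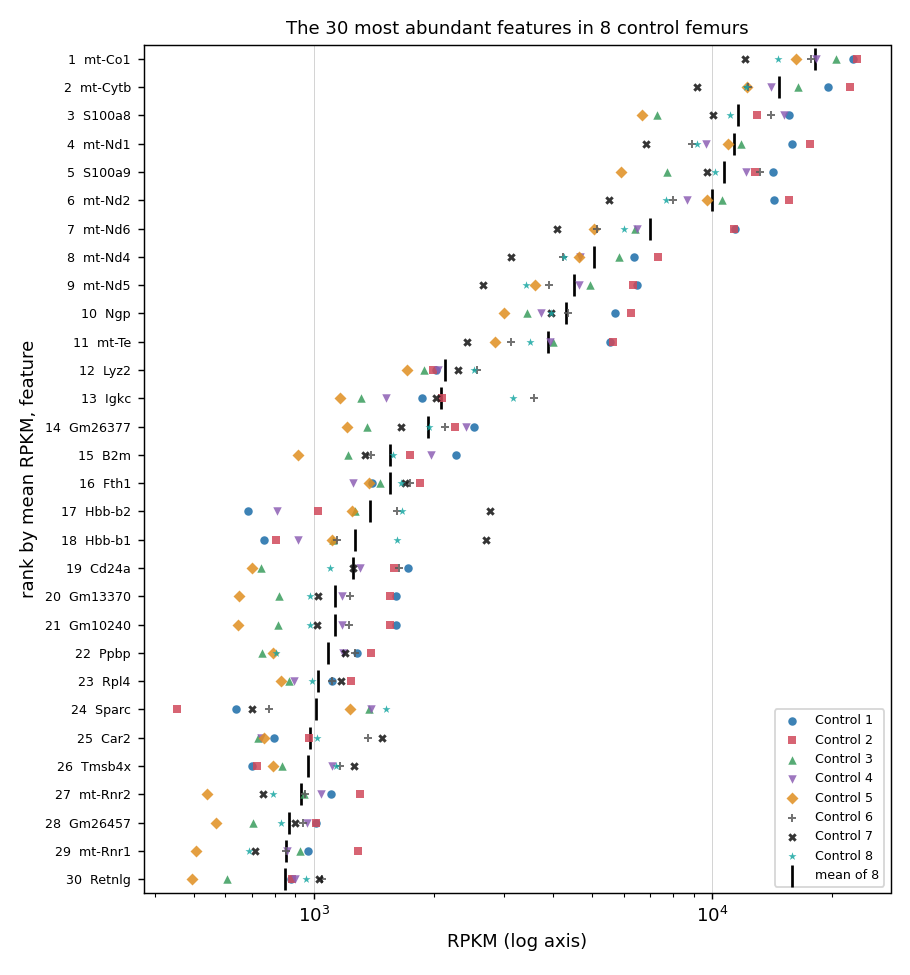
RPKM on a log axis of the 30 features with the highest mean over 8 control mice, with 1 symbol per mouse and a vertical tick at the mean. Mouse 7 was lowest for mt-Co1 (12103 RPKM) and highest for Hbb-b2 (2769 RPKM), and mouse 2 was lowest for Sparc (455 RPKM).

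Abundance was concentrated in few features. The 10 most abundant held 26.2% ± 4.93 of the summed RPKM, the 100 most abundant held 43.5% ± 4.55 and the 1000 most abundant held 67.7% ± 3.03. A level of 1000 RPKM was exceeded by 24 features and a level of 100 RPKM by 390, against a median of 4.48 RPKM over the features kept. Counted as reads instead, without dividing by length, the 10 features with most reads held 12.0% ± 2.59. Only 17 of the 30 features highest in RPKM were also among the 30 with most reads. The long collagen gene Col1a2, whose product forms type I collagen with that of Col1a1, moved from rank 99 by RPKM to rank 8 by reads, and Col1a1 moved from rank 110 to rank 15.

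Short features ranked higher by RPKM than by reads. Features under 200 bases held 12.5% ± 0.651 of the summed RPKM but 0.446% ± 0.0190 of the reads, and they filled 3 of the first 30 places and 16 of the first 60. Gm26377, with an implied length of 108 bases, had 1939 ± 486 RPKM at rank 14, and Gm26457, with 73 bases, had 866.7 ± 158 RPKM at rank 28. GENCODE M21 places Gm26377 inside Eef1a1 and the small nucleolar RNA Gm26457 inside Eef1b2, both genes of translation elongation, on the same strand. The kit does not mark strand, and for a feature inside an abundant gene the reads of the feature and of its host cannot be told apart. Gm13370 (1130 ± 334 RPKM) and Gm10240 (1129 ± 335 RPKM) had the same highest value of 1606 RPKM in mouse 1, had the same length of 483 bases, and are uncertain for the same reason, as near-identical copies could share reads.

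Mir677 and Mir3064, named for microRNAs and chosen here after their values were seen, stood among these short entries. Mir677, inside Atp5b, a subunit of the mitochondrial ATP synthase, had 690.7 ± 188 RPKM at rank 37 from 247 to 1068 reads per mouse, and ranked 4189 by reads. Mir3064, inside Ddx5, an RNA helicase, had 647.4 ± 165 RPKM at rank 42 and ranked 3838 by reads. The library kit selects messenger RNA, and the values are those of the whole feature of 72 or 84 bases, not of the mature microRNA. The mature RefSeq sequences (GRCm38.p6) are shown because they are what these symbols name, written 5′ to 3′ with the seed, bases 2 to 8, in capitals; none of the 4 seeds was shared.
mmu-miR-677-5p (chr10:128085291-128085312, plus strand): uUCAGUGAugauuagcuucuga
mmu-miR-677-3p (chr10:128085335-128085360, plus strand): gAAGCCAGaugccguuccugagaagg
mmu-miR-3064-5p (chr11:106782736-106782757, minus strand): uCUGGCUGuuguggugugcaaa
mmu-miR-3064-3p (chr11:106782695-106782716, minus strand): uGCCACACugcaacaccuuaca

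Osteocyte genes were all detected, with means from 1.13 to 139.7 RPKM. The 11 genes of the list had a median of 7.26 RPKM, above the 4.48 RPKM of all features kept, and their sum was 0.104% ± 0.0509 of all RPKM, from 0.0473% in mouse 2 to 0.182% in mouse 3. The matrix phosphoglycoprotein gene Mepe was highest, with 58.7 RPKM in mouse 6, a median of 127 and 262 in mouse 3. Dmp1, whose acidic protein regulates mineralization and phosphate, followed with 50.8 RPKM in mouse 2, a median of 116 and 181 in mouse 8. Sost, which encodes the Wnt inhibitor sclerostin made by mature osteocytes, had 29.4 RPKM in mouse 2, a median of 55.4 and 136 in mouse 3. Mice 3, 4 and 8 had the 3 highest values of all 3 genes, except that mice 4 and 5 both had 126 RPKM of Dmp1.

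Of the other osteocyte genes, Phex, an endopeptidase that restrains FGF23, had 19.3 ± 10.3 RPKM. Dkk1, another secreted Wnt inhibitor, had 11.5 ± 5.65 RPKM. Ptprz1 (7.26 ± 3.20 RPKM), a receptor phosphatase, Pdpn (6.11 ± 2.41 RPKM), the podoplanin of osteocyte processes, and Irx5 (3.42 ± 1.82 RPKM), a homeobox factor, were lower. Tnfsf11, which encodes the osteoclast-forming cytokine RANKL, had 3.45 ± 0.985 RPKM, and its decoy receptor gene Tnfrsf11b had 5.36 ± 2.27 RPKM. The potassium channel gene Kcnk2 (3.31 ± 0.602 RPKM) varied least, with a coefficient of variation (CV, the SD over the mean) of 18.2%. Fgf23, the phosphate-lowering hormone, was lowest, between 0.196 and 1.10 RPKM in 7 mice and 4.50 RPKM in mouse 6, resting on 4 to 131 reads. Fgf23 thus did not follow the mice in which Mepe and Sost were high.

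Osteoblast genes held 0.832% ± 0.312 of the RPKM and all 18 passed 0.5 RPKM, with a median of 41.2 RPKM. Sparc was followed by Ibsp (523 ± 190 RPKM), the bone sialoprotein of new mineral, and by Spp1 (419 ± 132 RPKM), the secreted phosphoprotein osteopontin, whose implied length was 5372 bases against 1648 in M21, so that it would be the highest of the list with M21 lengths. Col1a2 (341 ± 155 RPKM) and Col1a1 (304 ± 122 RPKM), the chains of type I collagen, came next, and Serpinh1, the chaperone of collagen folding, had 93.9 ± 35.1 RPKM. Collagen genes together held 0.269% of the RPKM and 1.23% of the reads. The osteocalcin genes varied far more. Bglap ranged from 11.7 RPKM in mouse 1 over a median of 59.0 to 119 in mouse 3, and its neighbour Bglap2 from 24.2 RPKM in mouse 4 over a median of 75.8 to 164 in mouse 3. The 2 genes are near-identical copies, so the division of reads between them is uncertain.

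The lower osteoblast genes included matrix proteins, an enzyme pair of mineralization and transcription factors. Serpinf1 (46.2 ± 13.8 RPKM), the collagen-binding factor PEDF, and Omd (36.2 ± 16.03 RPKM), the proteoglycan osteomodulin, were highest among them. Alpl, the alkaline phosphatase that removes the mineral inhibitor pyrophosphate, had 28.9 ± 12.5 RPKM, and Phospho1, which releases phosphate inside matrix vesicles, had 13.3 ± 6.00 RPKM. Ifitm5 (12.0 ± 7.22 RPKM), a membrane protein of mineralizing osteoblasts, and Pth1r (11.2 ± 6.19 RPKM), the parathyroid hormone receptor, were near 12 RPKM. Among the transcription factors, Sp7 had 17.4 ± 7.33 RPKM, Runx2 had 6.91 ± 1.80 RPKM and Dlx5 had 3.39 ± 1.68 RPKM. Runx2 had the lowest CV of the 18, at 26.0%.

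Osteoclast genes held 0.382% ± 0.115 of the RPKM, with a median of 8.52 RPKM, and 14 of 15 passed. Ctsk, the collagen-digesting cathepsin K, ranged from 425 RPKM in mouse 2 over a median of 637 to 1085 in mouse 8, at rank 41 of all features. Acp5, the tartrate-resistant acid phosphatase, ranged from 212 RPKM in mouse 2 over a median of 347 to 653 in mouse 8. Mmp9, a gelatinase that neutrophils also make, had 136 ± 37.8 RPKM and was again highest in mouse 8, at 219 RPKM. The integrin Itgb3 (98.9 ± 14.5 RPKM), shared with megakaryocytes, varied little (CV 14.7%). Mouse 8 was the highest of the 8 mice for 7 of the 14 genes kept, and mouse 2, the smallest library, was the lowest for 7. How often these mice were the extremes over all kept features is not given here, so the counts describe these genes only.

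The acid-secretion genes of osteoclasts were Atp6v0d2 (46.1 ± 17.3 RPKM) and Tcirg1 (13.3 ± 5.75 RPKM), subunits of the proton pump, with Clcn7 (7.36 ± 2.27 RPKM), the chloride transporter, and its partner Ostm1 (10.6 ± 1.95 RPKM). Oscar (8.52 ± 2.74 RPKM), a co-receptor, Nfatc1 (7.93 ± 1.26 RPKM), the lineage's transcription factor, and Dcstamp (7.03 ± 2.77 RPKM), a fusion protein, were close in level. The RANK gene Tnfrsf11a had 3.50 ± 1.24 RPKM, the kinase gene Src 1.38 ± 0.779 RPKM and the second fusion gene Ocstamp 0.952 ± 0.383 RPKM. Calcr, the calcitonin receptor of mature osteoclasts, did not pass, at 0.351 ± 0.107 RPKM from 7 or more reads per mouse.

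**Figure D2:**
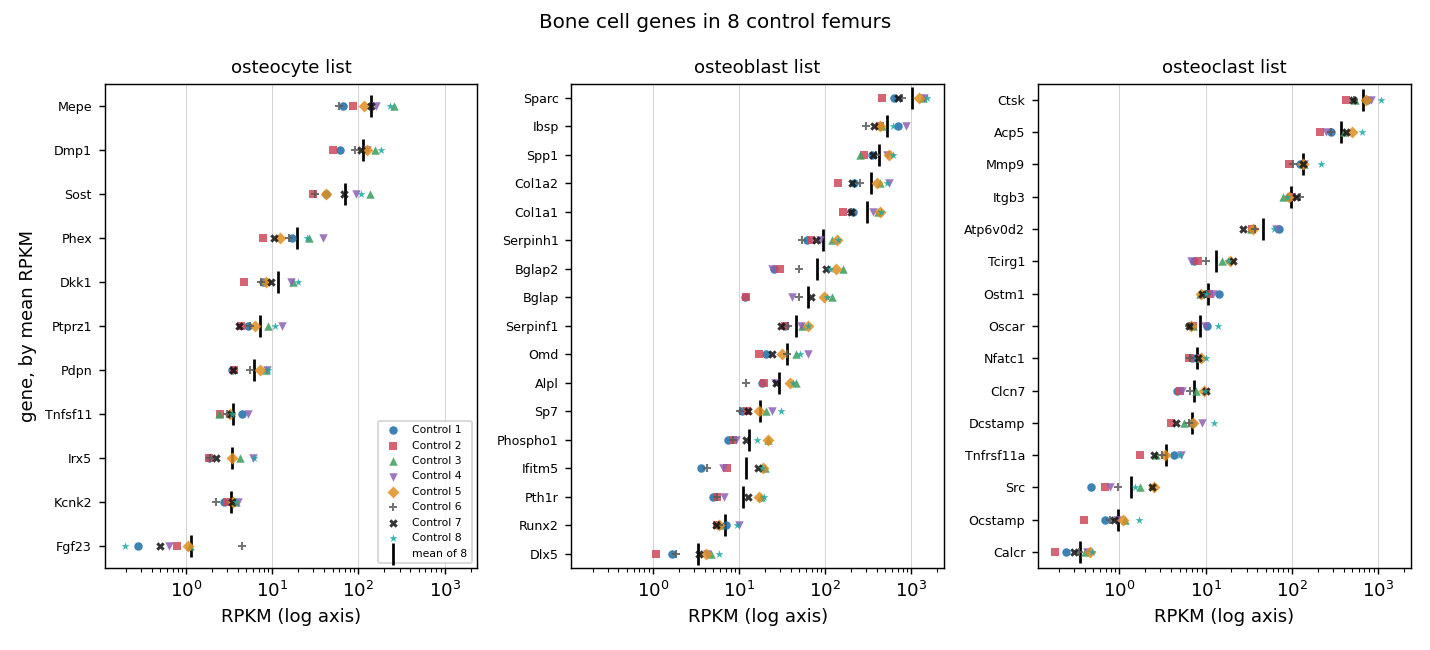
RPKM on a log axis of the osteocyte, osteoblast and osteoclast genes named in the text, ordered by mean, with 1 symbol per control mouse and a tick at the mean of 8. Fgf23 of mouse 6 (4.50 RPKM) stands apart from the other mice, and the osteocalcin genes Bglap and Bglap2 spread more widely than Runx2.

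The promoters of S100a8, the highest nuclear gene by RPKM with the implied lengths, of Bglap, with its copy the most variable of the osteoblast genes, and of Mepe and Sost, high osteocyte genes, are shown to set the start regions of these genes side by side. The 100 bases before the RefSeq start were taken from GRCm38.p6, which is not the build of the authors' alignment, and are written 5′ to 3′ on the strand of the gene. Capitals mark the motif TATAAA where it lies from 50 to 16 bases before the start.
S100a8 (chr3:90668971-90669070, plus strand): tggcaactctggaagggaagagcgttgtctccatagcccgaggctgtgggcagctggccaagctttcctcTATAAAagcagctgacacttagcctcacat
Bglap (chr3:88384467-88384566, minus strand): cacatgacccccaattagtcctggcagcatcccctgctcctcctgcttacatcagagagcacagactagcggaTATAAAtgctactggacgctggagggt
Mepe (chr5:104325229-104325328, plus strand): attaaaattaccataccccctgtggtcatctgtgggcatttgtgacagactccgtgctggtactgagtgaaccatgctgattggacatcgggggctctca
Sost (chr11:101967016-101967115, minus strand): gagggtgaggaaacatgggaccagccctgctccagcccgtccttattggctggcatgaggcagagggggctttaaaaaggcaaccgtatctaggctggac

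The motif began 30 bases before the start of S100a8 and 27 bases before that of Bglap, and these letters were not in the window of Mepe or Sost. In the same window the motif lay on the strand of the gene in 2.78% of the 27025 genes of the promoter table, and on the other strand in 0.962%. Of the 9412 kept genes with a promoter in the table it was in 1.71%, and of the 36 such genes among the 100 most abundant named features outside the mitochondrial genome it was in 3. By list it was in 0 of 10 osteocyte, 1 of 13 osteoblast, 0 of 9 osteoclast, 0 of 13 erythroid and 1 of 12 neutrophil genes. A match is a description of these letters only.

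Marrow cell genes were present at high levels after flushing. In bulk RNA fewer cells of a type and less RNA per cell cannot be told apart, so these values rank RNA and not cells. The 13 neutrophil genes analysed held 8.21% ± 1.51 of the RPKM, from 5.78% in mouse 5 to 9.88% in mouse 1, with a median of 690 RPKM. Of this, S100a8 and S100a9 alone held 5.97% ± 1.37. By reads the 13 genes held 2.78% ± 0.504, and the osteoblast genes 1.89% ± 0.727. Besides those already named, the granule genes Ltf (833 ± 139 RPKM), which encodes lactoferrin, and Camp (829.04 ± 276 RPKM), which encodes cathelicidin, were the next highest. The neutrophil sum was lowest in mice 5 and 3 at 18801 and 21754 RPKM and lay between 28524 and 39851 RPKM in the other mice. The other 6 genes of this list, among them Mpo and Elane, were not analysed here, so the share and the median are those of 13 genes of 19.

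Erythroid genes held 1.47% ± 0.575 of the RPKM, and all 20 analysed passed, with a median of 131 RPKM. High among them, besides the beta globins, was Alas2 (422 ± 105 RPKM), the first enzyme of heme synthesis in red cells. Hba-a1 was the most variable, from 14.5 RPKM in mouse 1 over a median of 84.3 to 564 in mouse 7. Hba-a2 ranged from 49.7 RPKM in mouse 1 over a median of 269 to 762 in mouse 7. These alpha globin genes are near-identical copies, so the division of reads between them is uncertain. Hemoglobin features together varied 5.02-fold in their share of RPKM, from 0.373% in mouse 1 to 1.87% in mouse 7, whereas Alas2 varied 2.15-fold.

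Of the other blood lineages, platelet and megakaryocyte genes had a median of 17.97 RPKM over 10 genes, led by Ppbp, the chemokine Pf4 (185 ± 78.0 RPKM), the tubulin Tubb1 (71.5 ± 20.1 RPKM) and Treml1 (35.2 ± 15.3 RPKM). The 12 macrophage genes had a median of 26.9 RPKM, led by Lyz2, which neutrophils also make, and then by C1qb (68.8 ± 23.1 RPKM) and C1qa (44.0 ± 22.1 RPKM), chains of complement C1q, and Ly86 (50.2 ± 17.02 RPKM, or 13.8 RPKM with M21 lengths). The 13 B lymphocyte genes had a median of 6.33 RPKM, led by Igj (99.97 ± 46.5 RPKM), the joining chain of plasma cells, Cd79b (26.9 ± 9.01 RPKM) and Cd79a (17.6 ± 6.36 RPKM). T and NK cell genes were lowest, with a median of 3.14 RPKM over 8 genes, and only Lat (14.4 ± 6.21 RPKM, or 6.47 RPKM with M21 lengths) exceeded 10 RPKM. The next were Cd3g (4.59 ± 1.52 RPKM), the granzyme Gzma (3.92 ± 1.63 RPKM) and Cd3d (3.83 ± 1.502 RPKM). The B lymphocyte list leaves out Igkc, Ighm and the variable segments of antibody genes. Immunoglobulin features, matched by description and including joining-chain genes such as Igj, held 1.58% ± 0.521 of the RPKM and thus overlap the list. The 13 neutrophil genes held 8.21%. All 17 proliferation genes exceeded 10 RPKM, led by Mki67 (183 ± 65.7 RPKM), Ccna2 (81.1 ± 24.4 RPKM), Ccnb2 (78.3 ± 20.7 RPKM) and the replication helicase subunit Mcm6 (60.6 ± 13.6 RPKM).

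The slow-fiber muscle genes differed more between mice than any other list. Of 30 muscle genes 4 were analysed here, with a median of 26.0 RPKM, so the level of muscle RNA as a whole is not given by them. Myh7, the slow myosin heavy chain, was 0.148 RPKM in mouse 1, had a median of 7.09 and was 30.2 RPKM in mouse 6. The slow troponins Tnnc1 (49.3 ± 37.3 RPKM), Tnnt1 (31.2 ± 21.4 RPKM) and Tnni1 (20.7 ± 18.1 RPKM) were also lowest in mouse 1. The sum of these 4 was 6.80 RPKM in mouse 1, 35.4 in mouse 7, 37.6 in mouse 8, 86.2 in mouse 2, 125 in mouse 4, 176 in mouse 5, 194 in mouse 3 and 249 in mouse 6. Their share of RPKM varied 39.0-fold, the widest range of the 18 lists. No fast-fiber gene was among the 4.

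Tissue of the bone surface and vessels was present too. Periosteum and tendon genes had a median of 62.3 RPKM over 11 genes, led by the proteoglycan genes Dcn (325 ± 126 RPKM), Lum (239 ± 129 RPKM) and Aspn (112 ± 54.0 RPKM) and by Col3a1 (86.2 ± 49.2 RPKM), the collagen of loose tissue. Endothelial genes had a median of 5.48 RPKM over 13 genes, and Pecam1 (22.3 ± 2.18 RPKM), Cdh5 (17.8 ± 2.70 RPKM), Esam (11.1 ± 3.48 RPKM) and Plvap (10.8 ± 3.25 RPKM) were highest. Marrow stromal genes were led by Cxcl12 (127 ± 29.5 RPKM), the chemokine that holds blood stem cells in marrow, then Kitl (13.8 ± 3.62 RPKM), Lepr (13.7 ± 3.27 RPKM) and Ebf3 (5.83 ± 1.70 RPKM). The adipocyte genes Fabp4 (467 ± 98.0 RPKM), which endothelium also makes, and Adipoq (54.0 ± 14.6 RPKM) were highest, followed by Cfd (28.1 ± 21.7 RPKM) and Pparg (10.2 ± 1.95 RPKM), while the lipid droplet genes Cidec (1.49 ± 1.09 RPKM) and Plin1 (0.844 ± 0.572 RPKM) were low and Lep, the leptin gene, did not pass at 0.323 RPKM. With M21 lengths Fabp4 was 66.3 RPKM and Dcn 145 RPKM.

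Cartilage and nerve genes were low. Of 12 cartilage genes 6 passed, led by Chad (14.6 ± 7.90 RPKM), Col2a1 (12.2 ± 6.27 RPKM), Col11a2 (11.8 ± 5.54 RPKM) and Comp (8.88 ± 5.90 RPKM), while the chondrocyte factor Sox9 had 0.487 RPKM and Col10a1 of hypertrophic cartilage 0.322 RPKM. The matrix genes Lect1 (0.114 RPKM), Matn3 (0.0735 RPKM), Col9a1 (0.0617 RPKM) and Matn1 (0.0120 RPKM) of cartilage were lower still. Lect1, Matn3 and Col9a1 rested on 0 to 13, 0 to 6 and 2 to 14 reads per mouse. Matn1 was above 0 in mouse 7 alone, so its number of reads there cannot be recovered. Among nerve genes S100b (10.8 ± 3.04 RPKM), Gfap (4.09 ± 1.29 RPKM) and Mbp (3.62 ± 0.589 RPKM) were highest, and the Schwann cell genes Prx and Sox10 had 0.132 and 0.0917 RPKM. As a reference for absent tissue, 8 of 15 genes of liver, pancreas, kidney, prostate, testis and other distant organs were listed at 0 in all 8 mice. Albumin (Alb) had 0.0361 RPKM, and only Cyp2e1, an enzyme of liver that fat also makes, passed 0.5 RPKM, ranging from 0.280 RPKM in mouse 1 to 7.08 RPKM in mouse 8.

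Ratios within a mouse do not depend on scaling between libraries, and 10 preset gene pairs were tested by a two-sided exact sign-flip permutation test, whose smallest possible p for 8 mice is 0.0078, with Benjamini-Hochberg adjustment. Sost exceeded Dkk1 in 8 of 8 mice, with a mean log2 ratio of 2.51 ± 0.28, or 5.71-fold (exact p = 0.0078, adjusted p = 0.013). Ctsk exceeded Acp5 in 8 of 8 mice by 1.83-fold. Sp7 exceeded Runx2, Mmp13 exceeded Mmp9, Ibsp exceeded Bglap and Hba-a2 exceeded Hba-a1 in every mouse, with log2 ratios of the lower over the higher gene of -1.25 ± 0.41, -1.27 ± 0.64, -3.39 ± 1.53 and -1.34 ± 0.58. With M21 lengths these 4 were -0.64, -1.12, -3.10 and -1.54. The exact p and its adjusted value were 0.0078 and 0.013 for each of these 5 pairs as well. The division of reads between Hba-a1 and Hba-a2, and between Bglap and Bglap2, is uncertain. Tests of ratios with these genes therefore cannot tell a difference in level from the way reads were assigned. Mmp13, the collagenase of osteoblasts and osteocytes, had 343 ± 128 RPKM.

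Other pairs were close. S100a8 exceeded S100a9 in 7 of 8 mice by 1.08-fold (exact p = 0.039, adjusted p = 0.0558), and with M21 exon lengths the mean log2 ratio was -1.20, so the order of the calprotectin genes depended on the length used. Without mouse 3 the ratio was 0.13 (adjusted exact p = 0.0223). The log2 ratio was -0.13 ± 0.27 for Col1a1 to Col1a2 (exact p = 0.234), -0.24 ± 0.47 for Dmp1 to Mepe (exact p = 0.188) and -0.41 ± 0.65 for Bglap to Bglap2 (exact p = 0.141), so no difference in level was detected. Without mouse 4 the Bglap ratio was -0.57 (adjusted exact p = 0.0446), and with M21 lengths the collagen ratio was -0.29 (adjusted exact p = 0.0293). For the collagen and calprotectin pairs the ratio varied less than either gene did, with CVs of 17.4% for the collagen ratio against 40.3% and 45.5% for Col1a1 and Col1a2, and 8.18% for the calprotectin ratio against 29.4% and 26.9% for S100a8 and S100a9. The same held for Sost to Dkk1 (19.7% against 57.7% and 49.1%) and Dmp1 to Mepe (36.2% against 39.4% and 53.7%). It also held for Bglap to Bglap2 (49.0% against 65.6% and 68.3%) and Hba-a1 to Hba-a2 (42.0% against 121% and 80.3%). It did not hold for Mmp9 to Mmp13 (49.5% against 27.7% and 37.3%) or Bglap to Ibsp (68.5% against 65.6% and 36.4%). Nor did it for Runx2 to Sp7 (29.6% against 26.0% and 42.1%) or Ctsk to Acp5 (37.2% against 31.8% and 39.6%).

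Variation between mice exceeded counting error for most features. The median CV over the features kept was 28.7%, against 7.18% expected from the number of reads alone. For the 4895 features at 10 RPKM or more it was 22.8% against 3.33%. The highest mouse was at least 2-fold above the lowest for 62.2% of features kept and for 46.2% of those at 10 RPKM or more. By that measure 10 of 11 osteocyte, 17 of 18 osteoblast and 20 of 20 erythroid genes differed 2-fold, and 11 of 14 osteoclast and 7 of 13 neutrophil genes did. The median CV was 49.1% for osteocyte, 42.7% for osteoblast, 33.9% for osteoclast, 34.3% for erythroid, 23.2% for neutrophil and 29.3% for endothelial genes. Kdr (6.89%) and Tek (7.22%), endothelial receptor genes, were among the steadiest cell type genes.

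**Figure D3:**
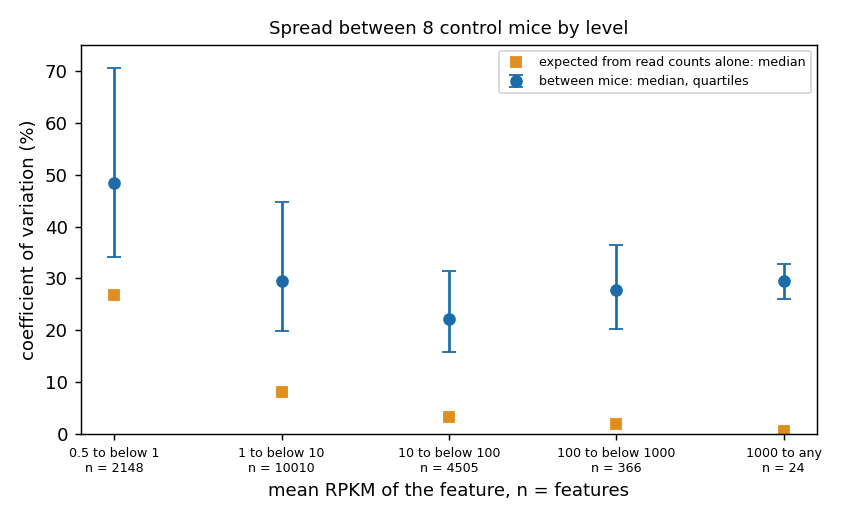
Median coefficient of variation over 8 control mice, in percent with bars from the lower to the upper quartile, for features grouped by mean RPKM, and the median expected from read counts alone. It was 48.5% below 1 RPKM and 22.3% from 10 to 100 RPKM, above the counting part in every group.

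Of the 8 most variable named genes at 10 RPKM or more, 6 were antibody segments. Igkv12-46 ranged from 3.89 RPKM in mouse 3 to 285 in mouse 8, and Igkv8-30 from 3.25 RPKM in mouse 6 to 191 in mouse 8. Ighv6-3, Igkv12-89, Igkv19-93 and Igkv5-48, further variable segments of antibody genes, had CVs of 111% to 115%, and their highest mice were 8, 1, 6 and 2. Different mice thus led for different segments. Of the 50 named genes with the highest CV, 19 were such segments, out of 29 at this level, and these 29 had a median CV of 80.7%. The other 2 of the first 8 were Hba-a1 (CV 121%) and Mybph, a muscle myosin-binding protein, which was 100.2 RPKM in mouse 5 and at most 17.5 RPKM in the others.

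The steadiest gene was Gosr1, a SNARE protein of the Golgi, which lay between 10.8 and 11.5 RPKM (CV 2.54%). The ubiquitin ligase Huwe1 (CV 2.64%), Rnf7 (3.67%), a subunit of such ligases, and Dennd5a (3.96%), a Rab regulator, followed. Hdac3 (4.25%), a histone deacetylase, Vps36 (4.39%), of endosomal sorting, Nrbp1 (4.73%) and Setd3 (4.85%), a methyltransferase of actin, completed the lowest 8. Actb, the actin gene often used as a reference, had a CV of 11.6%.

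Between any pair of mice the log2 values correlated with Pearson's r from 0.829 to 0.929 (median 0.901 over 28 pairs, across features, which are not independent). The first principal component held 36.0% of the variance and set mice 1, 2 and 4 against mice 3, 5, 7 and 8. The loadings of this component correlated with exon GC content at r = -0.51 across 14830 features, given as a description, and features of the highest GC group, over 55.4%, deviated by a median of -0.59 in mouse 1 and 0.56 in mouse 7 on the log2 scale. The fitted slopes were -0.48, -0.11, 0.27, -0.49, 0.41, -0.12, 0.39 and 0.13 log2 units per 10 points of GC in mice 1 to 8. The part of GC content in the differences between mice was not tested beyond the GC-corrected values given here. With each mouse centred within groups of like GC content, a correction chosen after seeing the data, the median CV was 22.2%, while the share of the first component was 32.3%. In mice 2 and 6 the slopes were -0.11 and -0.12 and the values on the first component 0.38 and 0.03. Features of the highest GC group deviated by a median of -0.28 in mouse 2 and -0.12 in mouse 6.

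**Figure D4:**
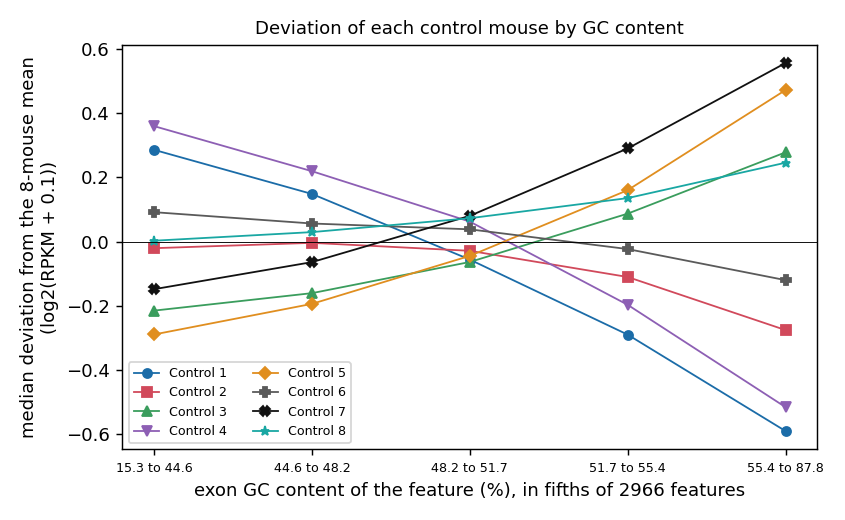
Median deviation of each control mouse from the mean of 8 on the log2(RPKM + 0.1) scale, for features in groups of 2966 by exon GC content in percent. Mouse 1 (-0.59) and mouse 4 (-0.52) were lowest and mouse 7 (0.56) and mouse 5 (0.47) highest in the group of highest GC.

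The scores of the bone cell lists were positively related over the mice in value, but no relation passed after adjustment. Each list was scored per mouse as the mean of log2(RPKM + 0.1) after centring each gene, and 10 relations were tested by two-sided exact permutation over 40320 pairings. The osteocyte score ranged from -0.66 in mouse 2 to 0.58 in mouse 4, a 2.35-fold range, and the osteoblast score from -0.74 in mouse 2 to 0.71 in mouse 8. The osteoblast and osteocyte scores correlated with Pearson's r = 0.86 (exact p = 0.0125, adjusted p = 0.125) and Spearman's rho = 0.81 (exact p = 0.0218, adjusted p = 0.109), and r was 0.68 without the 2 mice farthest from the median. With GC correction r was 0.92 (adjusted exact p = 0.0275), and without mouse 4 it was 0.91 (adjusted exact p = 0.0278). The median GC of the osteoblast genes was 55.6% and that of the osteocyte genes 49.6%.

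The neutrophil and osteocyte scores had Pearson's r = -0.72 (exact p = 0.0515, adjusted p = 0.208) and rho = -0.83 (exact p = 0.0154, adjusted p = 0.109), with r = -0.98 without the 2 farthest mice. Without mouse 5, r was -0.92 (adjusted exact p = 0.0119). The osteoclast and osteocyte scores had r = 0.66 (exact p = 0.0624, adjusted p = 0.208) and rho = 0.64 (exact p = 0.0962, adjusted p = 0.24), with r = 0.30 without the 2 farthest mice, and so this value rested on them. The osteoclast and neutrophil scores had r = -0.49 (exact p = 0.224, adjusted p = 0.559) and rho = -0.67 (exact p = 0.0831, adjusted p = 0.24). In the remaining 6 relations, which joined erythroid, muscle and library size to the other scores, r lay between -0.39 and 0.39 and every adjusted exact p was at least 0.535.

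**Figure D5:**
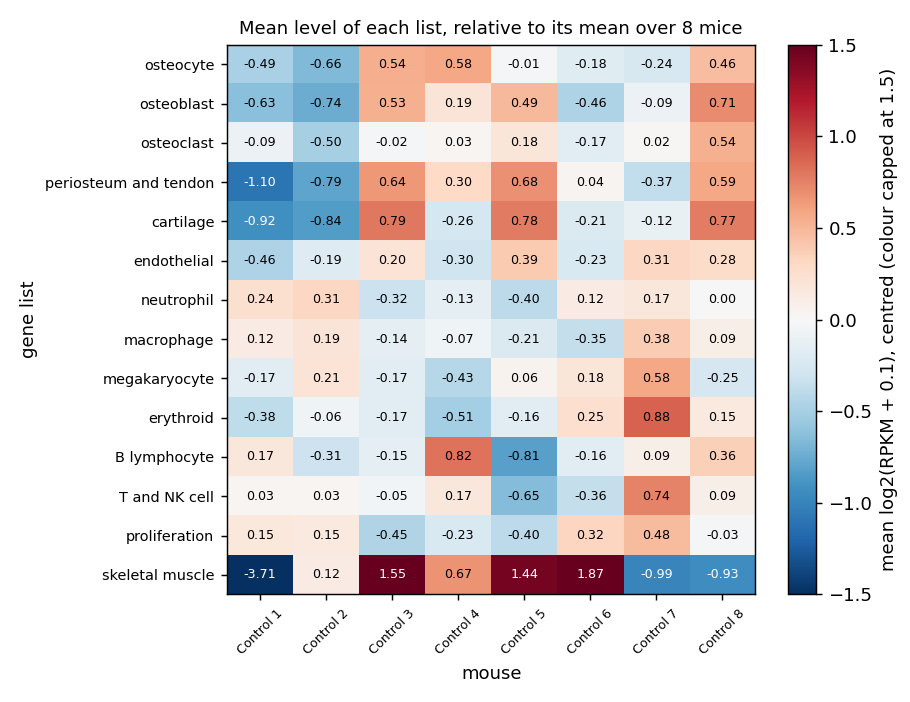
Mean level of each gene list in each control mouse on the log2(RPKM + 0.1) scale, centred on the mean of 8 mice (red higher, blue lower, colours capped at 1.5 and values printed in each cell). The osteocyte and osteoblast lists were both lowest in mouse 2 (-0.66 and -0.74), the erythroid list was highest in mouse 7 (0.88) and the muscle list was lowest in mouse 1 (-3.71).

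Mice 1 and 2 had the lowest scores of osteocyte, osteoblast, cartilage and periosteal genes, and mice 3 and 8 scored above the mean for all 4. Mouse 2, the smallest library, was the lowest of the 8 for 5 of 11 osteocyte and 6 of 18 osteoblast genes, and mouse 8 was the highest for 4 and 8 of them. The share of all kept features with these extremes is not given here, so the counts do not set the lists apart. In mouse 7 the erythroid (0.88), T and NK cell (0.74), megakaryocyte (0.58), proliferation (0.48), macrophage (0.38) and nerve (0.31) scores were the highest of the 8, while the osteocyte (-0.24), osteoblast (-0.09) and osteoclast (0.02) scores lay near their means. Mouse 7 also had the highest median deviation of GC-rich features. The muscle score ranged from -3.71 in mouse 1 to 1.87 in mouse 6, and the endothelial score from -0.46 to 0.39, which narrowed from a range of 0.86 to 0.34 with GC correction. The osteocyte range was 1.23, and 1.15 with the correction. It fell from 1.45 to 1.15 for the osteoblast score, from 1.04 to 0.79 for osteoclast, from 1.39 to 1.02 for erythroid and from 1.71 to 1.18 for cartilage. The range rose from 0.71 to 0.76 for the neutrophil score and from 1.63 to 1.88 for B lymphocyte.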

How the data were processed

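RNA of cortical bone was sequenced from TruSeq v2 libraries on a HiSeq, with 8 libraries in a lane. Per the submitters' processing notes and the methods of the study, reads were aligned to mm9 with TopHat2 and compared with DESeq2, which was not used here. The authors deposited RPKM values per mouse, and their annotation and gene lengths are not given in the sources used here. Whole reads and the implied gene lengths were recovered as the smallest lengths that make all 8 values whole within 0.002 reads, for 17053 of 17053 features kept, and the recovery was tested on simulated data. For 5042 of 14830 features the implied length was over 1.5 times away from the exon length in GENCODE M21, so levels between genes depend on the deposited lengths, while ratios between mice do not. Of the features, 3887 carry the symbol Rnf135 and 27 a date, and only symbols carried by 1 feature were used as gene names. No column of per-sample values was left unmapped (0 unused).

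The genes named are the 30 most abundant features, all osteocyte, osteoblast and osteoclast genes, the 4 highest of each other list, markers under 0.5 RPKM, the 8 most and 8 least variable named features at 10 RPKM or more, and the genes of the pairs. Other named genes were chosen after their values were seen. A few list genes are counted in their lists but not reported here by name. The 18 lists hold 255 genes, of which 214 were analysed. Members and lists were chosen with earlier results of these data known. A pseudocount of 0.1 was added before log2. Counting error was computed from the recovered reads. GC content was the exon GC of GENCODE M21 on GRCm38. Promoter and microRNA sequences came from RefSeq tables of GRCm38.p6, a different build, and gene positions of the features were not taken from it. Of 15801 kept genes with a unique symbol, 9412 had a promoter there. Software was Python 3.11.15 (pandas 2.3.3, numba 0.67.0, scipy 1.17.1 and numpy 2.4.6), and plots used matplotlib 3.10.9. Alternatives were other scalings, pseudocounts of 1 and 0.01, other filters, recovered reads, other lengths, GC correction and leaving out each mouse.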

Additional observations from a re-analysis of the deposited data

Results flagged for a closer look

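Of 182 named genes and shares tested in 8 mice, 15 had 1 mouse far from the other 7. For 7 of the 15 this was mouse 7. Chance gives about 1 in 20, but the count cannot be compared with this rate. The genes tested include the 8 most variable ones, which were picked on the same values. Igkv12-46, Igkv8-30, Igkv5-48, Mybph and Hba-a1 belong to these and are among the 15. The count and the tally for mouse 7 are therefore descriptions only. The globin genes of mouse 7 stood apart at 564 RPKM for Hba-a1, 2703 RPKM for Hbb-b1 and 2769 RPKM for Hbb-b2, where the next mouse had 232, 1620 and 1668 RPKM. In the same mouse Ccnb2, a mitotic cyclin, was 123 RPKM (next 86.1), Cd3d of T lymphocytes 7.22 RPKM (next 4.11) and Gfap 6.99 RPKM (next 4.51). Matn1 was 0.0962 RPKM, where the other 7 mice were listed at 0, so that any read would set it apart. With 1 mouse above 0, the smallest-length rule always gives 1 read, here at 666 bases against 2001 in M21. The number of reads of Matn1 is therefore not known. Mouse 7 also had the highest values of GC-rich features, whose part was not tested.

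In mouse 8 the antibody segments Igkv12-46 (285 RPKM, next 77.1) and Igkv8-30 (191 RPKM, next 24.2) stood apart, as did Mmp9 (219 RPKM, next 138). Igkv5-48 was 43.6 RPKM in mouse 2 against 20.9 RPKM in the next mouse. Fgf23 was 4.50 RPKM in mouse 6 against 1.10 RPKM in the next. Mybph, a muscle gene, was 100.2 RPKM in mouse 5 against 17.5 RPKM in the next. Kitl, the stem cell factor gene, was 22.2 RPKM in mouse 4 against 14.0 RPKM in the next. Col10a1 was 0.632 RPKM in mouse 1 against 0.379 RPKM in the next.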

How the results depend on the processing

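Pseudocounts of 1 and 0.01 left the direction and side of the threshold of the 10 gene ratios as they were, and scaling by median of ratios or to a fixed sum, other pseudocounts and other filters did so for the relations between scores other than those named next. The muscle and erythroid scores had r = 0.0066, and r turned to -0.024 with median-of-ratios scaling, -0.048 with a pseudocount of 1, -0.074 with the median of members, -0.20 with GC correction, -0.19 without hemoglobin genes, -0.51 without mouse 1 and -0.10 without mouse 6 (range -0.51 to 0.33 leaving out 1 mouse). The erythroid and neutrophil scores had r = 0.32, and -0.031 when mitochondrial features were left out of the scaling. Without mouse 2, the smallest library, library size and the osteocyte score had r = -0.62 (range -0.62 to 0.44), and library size and the neutrophil score 0.064 (range -0.63 to 0.064). Leaving out 1 mouse, r lay between 0.80 and 0.92 for osteoblast and osteocyte, where it became significant without mouse 4 and with GC correction (0.92), and between -0.92 and -0.62 for neutrophil and osteocyte, where it did so without mouse 5. With M21 lengths, log2 ratios were -0.29 for Col1a1 to Col1a2 and -1.20 for S100a8 to S100a9. Leaving out 1 mouse, these log2 ratios ranged from 0.075 to 0.13 for S100a8 to S100a9 and from -0.57 to -0.28 for Bglap to Bglap2. The share of the 10 highest features was 12.0% in reads and 13.5% without mitochondrial features. At 2 RPKM 5 adipocyte and 3 nerve genes passed instead of 8 and 5, and at 0.1 RPKM 3 genes of distant organs passed instead of 1. The median CV was 22.8% at 10 RPKM or more and 22.2% with GC correction, and the first component held 49.1% at 10 RPKM or more and 46.8% among features of at least 200 bases. GC correction, M21 lengths, the hemoglobin and the length restrictions were chosen after seeing the data. No paired analysis was possible because 1 group only was described.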

Other observations

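Muscle genes outside the list, chosen after their values were seen, ranked the mice in part as the slow-fiber genes did. Klhl41, a protein of the sarcomere, was 33.4 RPKM in mouse 1, had a median of 60.9 and was highest in mouse 3 at 147 RPKM. Csrp3, the muscle LIM protein, lay between 8.03 and 18.1 RPKM in mice 1, 2, 4, 7 and 8 and between 69.3 and 76.7 RPKM in mice 3, 5 and 6. Casq2, the calsequestrin of slow and cardiac muscle, ranged from 1.85 RPKM in mouse 1 to 11.7 RPKM in mouse 5. Mice 3, 5 and 6 were the 3 highest for all 3 genes and for Myh7. The myogenic factors Myod1 (1.30 ± 0.885 RPKM) and Myog (1.21 ± 0.693 RPKM) were low and both highest in mouse 5, at 3.21 and 2.52 RPKM.

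Cytosolic ribosomal protein features held 2.55% ± 0.436 of the summed RPKM, from 2.02% in mouse 1 to 3.40% in mouse 7, the reverse of the mitochondrial share in mouse 7. These were 272 features matched by symbol and description, 209 of them kept, and pseudogenes were not removed. Immunoglobulin features held 1.58% ± 0.521, with 2.41% in mouse 8 and 2.35% in mouse 6 and at most 1.65% in the other mice. Ighm, the constant region of IgM, is itself an immunoglobulin gene, so its values are not separate from that share. It had 1521 RPKM in mouse 8, 1246 in mouse 6 and between 404 and 702 RPKM in the others. The B lymphocyte score, which leaves out Ighm and Igkc but holds Igj, was highest in mouse 4 at 0.82.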
